A study of Mus musculus with 6 samples.

Results

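Nell2 encodes a secreted glycoprotein of neurons, and Nell1 is its closest relative. All probe sets that the platform annotation pairs with either gene were taken, which gave 2 of the 22626 non-control probe sets, both for Nell2 (Entrez gene 54003, mouse chromosome 15). They are 1423561_at, called the brighter probe set below (mean signal 199.4), and 1423560_at, called the dimmer probe set (mean signal 81.5). No probe set was paired with Nell1 (chromosome 7), so Nell1 was not analysed here. Both Nell2 probe sets are listed under the same expressed sequence tag, so they are not independent measurements of the gene. Nell2 had been picked because its brighter probe set was higher in the knockout arrays, so the difference between the groups is given below as a description, with no test.

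NELL proteins carry a thrombospondin-like domain at the amino end, von Willebrand factor C modules and EGF-like repeats, and they act outside the cell after secretion. NELL2 is made mainly by neurons, and it is a ligand of the axon guidance receptor Robo3. NELL1 is best known from bone formation, where integrin beta 1 and Cntnap4 have been described as its receptors. In the developing visual system Nell2 has been studied mainly in retinal ganglion cells and their axons.

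Total RNA from retinae was hybridised to 6 Affymetrix arrays, 3 from wildtype C57BL/6 mice and 3 from C57BL/6 knockout mice, all at postnatal day 7. The knockout animals are given as hemizygous males (-/Y), while the sex of the wildtype animals is not given. Nothing states whether an array held the RNA of 1 animal or of several, so the spread between arrays may be partly technical. With 3 arrays a group, each value below has limited precision. Signals are MAS5 probe set intensities, and arrays were brought here to a common mean, computed without the highest and lowest 2% of signals. The comparison asks which transcripts differ between knockout and wildtype retinae at postnatal day 7, before the eyes open.

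The arrays held retinal RNA: 9 of 11 rod markers were in the annotation, all 9 above the filter (a mean signal above the 40th percentile of all probe sets), with a summed scaled signal of 25036 to 26429 in wildtype and 21254 to 24832 in knockout arrays. Knockout array 1 stood apart, correlating with the other arrays at 0.914 to 0.936, against 0.958 to 0.979 among the other 5. The results on Nell2 are therefore given with and without it.

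Nell2 signal was higher on all 3 knockout arrays than on any wildtype array for the brighter probe set, but the groups overlapped for the dimmer one. Groups that did not overlap with the knockout higher were found for 4.05% of all probe sets tested, and nothing is read from that share, since this contrast chose the gene. For the brighter probe set the scaled signal was 155.2, 120.5 and 102.0 on wildtype arrays 1 to 3, and 376.4, 177.6 and 264.5 on knockout arrays 1 to 3. The lowest knockout array, array 2, lay 1.14-fold above the highest wildtype array, array 1, so the groups were separated by a narrow gap. The group means were 125.9 ± 27.0 in wildtype and 272.8 ± 99.7 in knockout retinae (SD, n = 3), a ratio of 2.17.

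For the dimmer probe set the scaled signal was 59.6, 41.1 and 40.1 on wildtype arrays 1 to 3, and 201.0, 49.5 and 98.0 on knockout arrays 1 to 3. Knockout array 2 lay below wildtype array 1, while knockout arrays 1 and 3 lay above all wildtype arrays. The group means were 46.9 ± 11.0 in wildtype and 116.1 ± 77.4 in knockout retinae (SD, n = 3), a ratio of 2.48 that rests largely on knockout array 1.

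**Figure D1:**
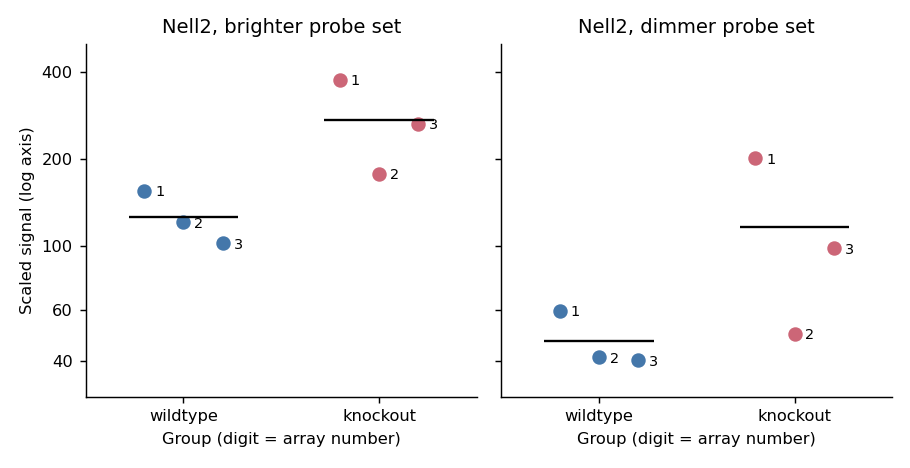
Scaled signal of the 2 Nell2 probe sets on each array (log axis), by group, with the array number beside each point and a line at the mean of the 3 arrays. Knockout array 1 was the highest for both probe sets, at 376.4 and 201.0, and knockout array 2 was the lowest of its group, at 177.6 and 49.5.

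The knockout arrays varied more among themselves than the wildtype arrays did. The highest knockout array had 2.12 times the signal of the lowest for the brighter probe set and 4.06 times for the dimmer probe set, against 1.52 and 1.49 times among the wildtype arrays. On the log2 scale, after adding a pseudocount of 19.1, the SD was 0.26 in wildtype and 0.50 in knockout for the brighter probe set, and 0.23 and 0.84 for the dimmer probe set.

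In the order of levels for the brighter probe set, the arrays ran from knockout 1 over knockout 3, knockout 2, wildtype 1 and wildtype 2 to wildtype 3. For the dimmer probe set the order was the same except that wildtype 1 and knockout 2 changed places, with 59.6 and 49.5. Wildtype arrays 2 and 3 were close for that probe set, at a ratio of 1.02.

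The place of Nell2 among all signals of an array does not depend on how arrays are scaled. The signal of the brighter probe set stood at percentile 59.5, 53.4 and 51.4 of all non-control probe sets on wildtype arrays 1 to 3 and at 78.6, 62.7 and 71.0 on knockout arrays 1 to 3. That of the dimmer probe set stood at 37.2, 29.2 and 33.7 on the wildtype arrays and at 66.5, 35.8 and 50.6 on the knockout arrays. By percentile, too, the groups did not overlap for the brighter probe set and overlapped for the dimmer probe set. Probe sets differ in how strongly they bind, so a percentile describes signal and not transcript number, and no detection calls were used here to say whether the dimmer values exceeded background.

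In the fit over all 13575 probe sets above the filter on mean signal, the log2 difference, knockout minus wildtype, was 0.97 ± 0.26 (SE) for the brighter probe set and 0.89 ± 0.38 for the dimmer probe set. The median over all probe sets tested was 0.0. The dimmer probe set passed the filter, a mean signal of 62.4, only through its knockout arrays, since its wildtype mean was 46.9. That it was tested is therefore no support for the difference. Groups that did not overlap, with the knockout higher by at least 1.5-fold, were found for 0.25% of all probe sets tested, the brighter Nell2 probe set among them. Nothing is read from that share either. Without knockout array 1 the log2 difference was 0.72 for the brighter probe set and 0.45 for the dimmer probe set. In retinal tissue, a change in the number of cells that make Nell2 and a change in its RNA per cell cannot be told apart.

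**Figure D2:**
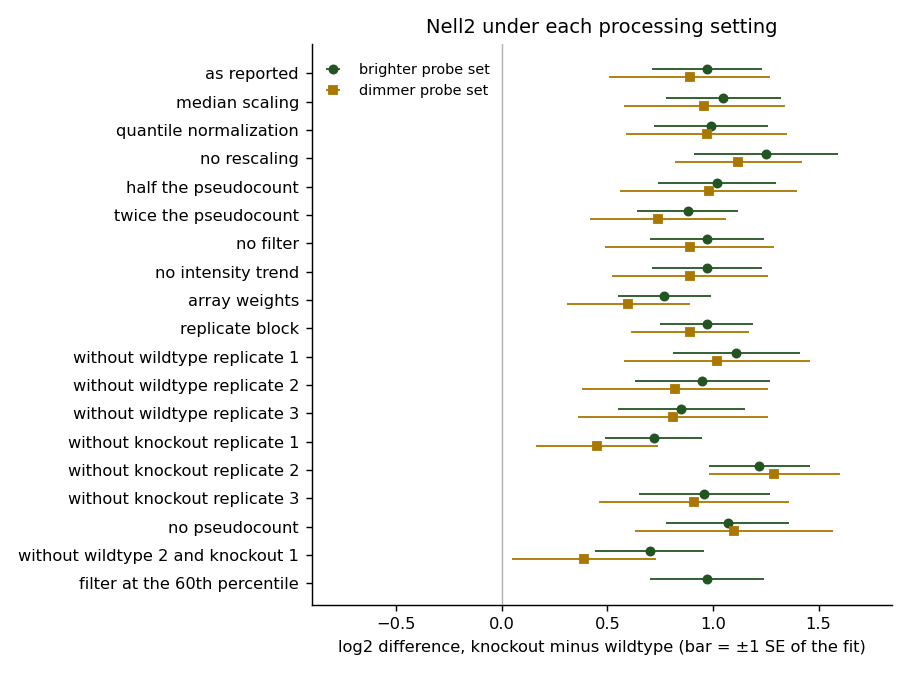
Log2 difference of each Nell2 probe set, knockout minus wildtype, under each processing setting, with bars of 1 SE from the fit. Every value was above 0, and the lowest, 0.39, was that of the dimmer probe set without wildtype array 2 and knockout array 1.

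The probe sets were then compared array by array in a way that leaves out the group difference. Each array's log2 signal was set against the mean of its own group. Both probe sets deviated in the same direction on 5 of 6 arrays. Deviations from a group mean cancel out within the group, so the 6 directions are not separate agreements. The same count was not made for other genes, so it is a description only. Knockout array 1 lay above its group mean by 0.50 for the brighter probe set and 0.86 for the dimmer probe set. Knockout array 2 had deviations of -0.51 and -0.82, and wildtype array 1 had 0.28 and 0.27. The exception, knockout array 3, lay close to its group mean for both, at 0.02 and -0.05. Wildtype array 2 was also close for the brighter probe set, at -0.04 and -0.12, and counted as agreeing. Wildtype array 3 had -0.24 and -0.14.

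The ratio of the probe sets on the same array, the brighter over the dimmer, was 2.61, 2.93 and 2.54 on wildtype arrays 1 to 3 and 1.87, 3.59 and 2.70 on knockout arrays 1 to 3. The ratio was steadier among the wildtype arrays, and its lowest and highest values were both on knockout arrays. The groups overlapped in this ratio.

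**Figure D3:**
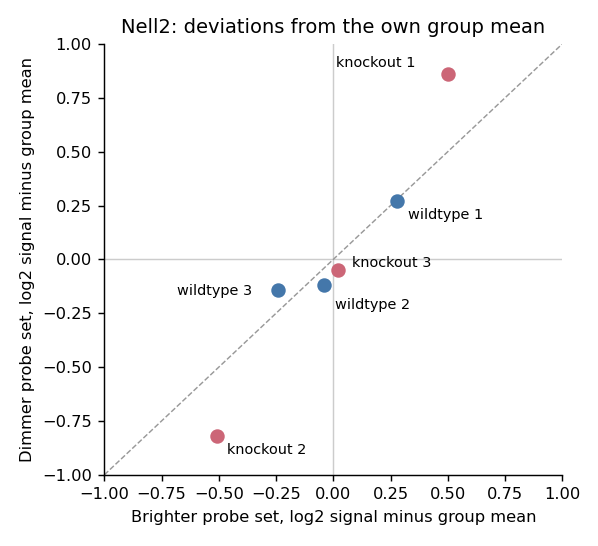
Deviation of each array's log2 signal from the mean of its own group, for the brighter probe set (x axis) and the dimmer probe set (y axis), with a dashed line of equal deviation. Knockout arrays 1 and 2 lie at opposite ends, at 0.50 and 0.86 and at -0.51 and -0.82.

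Further probe sets were also read for other genes with a probe set higher in the knockout arrays. Of 28 named genes with a probe set at least 1.5-fold higher in the knockout arrays without overlap, 20 had another tested probe set. In 2 of those 20, Nell2 and the nuclear noncoding RNA Malat1, another probe set also had a log2 difference of at least 1.5-fold, with 0.89 for Nell2 and 0.79 for Malat1. The next values below that cut were 0.58 for Dnmt3a and 0.50 for Urm1, and 15 of the 20 genes had another probe set above 0. Without knockout array 1 the dimmer Nell2 probe set, at 0.45, was below the cut too. These genes, Nell2 included, were chosen by the same contrast, so the count is a description and does not set Nell2 apart.

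Markers of RNA quality and of other cells were set beside the Nell2 levels. The 3' to 5' signal ratio of the Actb control probe sets, which rises as RNA is degraded or incompletely copied, was 1.64, 1.44 and 1.59 on wildtype arrays 1 to 3 and 2.17, 1.69 and 1.90 on knockout arrays 1 to 3. From the highest ratio down, the arrays ran knockout 1, knockout 3, knockout 2 and wildtype 1, the same first 4 places as for the brighter probe set. The Gapdh control ratio was also highest on knockout arrays 1 and 3, at 1.18 and 1.16. On knockout array 2 it was 0.88, against 0.98, 0.82 and 0.88 on wildtype arrays 1 to 3, so the groups overlapped in this ratio. The deposited signal of the 18S ribosomal RNA control was 1710 on wildtype array 2 and 721.8 on knockout array 1, against 34.6 to 56.5 on the other 4 arrays. It was thus high on the array with the highest Nell2 signal and also on a wildtype array with low Nell2 signal. The part of RNA quality in the Nell2 difference was not tested.

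The summed signal of retinal ganglion cell markers overlapped between the groups. Of 12 markers 10 were in the annotation, all above the filter, and their summed scaled signal ranged from 9612 to 10257 in wildtype and from 9866 to 10574 in knockout arrays. Log2 differences were positive for 4 and negative for 6, with a median of -0.01. Thy1, a surface glycoprotein of ganglion cells, had 0.42 and the neurofilament gene Nefh had 0.58, while Sncg, encoding gamma-synuclein, had -0.39 and the RNA-binding protein gene Rbpms -0.26. The amacrine markers (9 of 10 measured) summed to 5892 to 6344 in wildtype and 5849 to 6255 in knockout arrays.

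The microglia markers, 7 of 7 measured with 6 above the filter, summed to 940.6 to 1086 in wildtype and 888.2 to 1726 in knockout arrays, with the highest value on knockout array 1. The pigment epithelium markers, 6 of 7 measured, summed to 1119 to 2910 in wildtype and 2085 to 3261 in knockout arrays. Their sum too was highest on knockout array 1, where Ttr alone had 1878. By mean log2 deviation per tested marker, wildtype array 1 and knockout array 1 had the same value, 0.37. The rod sum was lowest on knockout array 1, at 21254. The lens markers, 13 of 15 measured with 7 above the filter, summed to 246.5 to 2209 in wildtype and 366.7 to 1299 in knockout arrays. Their sum was highest on wildtype array 3. Log2 differences of the 7 above the filter were all positive, with a median of 0.45. Those below the filter mostly went the other way. Cryba2 had -0.41, Crybb2 -0.18, Crygd -0.24, Crygs -0.56 and Mip -0.38, while Cryba4 had 0.04.

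Of all the marker lists summed, including some not named here, the sums of 3 did not overlap between the groups. The rod sums given above were all lower in the knockout arrays. The skeletal muscle markers, 8 of 8 measured with 4 above the filter, summed to 480.1 to 588.6 in wildtype and 340.1 to 411.5 in knockout arrays. The horizontal cell markers, 5 of 6 measured, summed to 1721 to 1868 in wildtype and 1885 to 2266 in knockout arrays, the highest on knockout array 3. Sums weigh bright markers most. By mean log2 deviation per tested marker, the rod and horizontal cell lists overlapped between the groups. Rod values were -0.02 to 0.15 in wildtype and -0.33 to 0.11 in knockout arrays. Horizontal cell values were -0.15 to 0.05 and -0.16 to 0.14. Muscle values did not overlap, at 0.12 to 0.24 and -0.27 to 0.00. No measured marker of the lists named here was at exactly 0, but some lay near the floor, such as the muscle marker Myh4 at 0.536 to 4.25. The part of these lists in the Nell2 difference was not tested.

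The partners of the NELL proteins were examined next, with 4 gene lists of 46 genes in all. Of their 38 tested probe sets, 0 passed a Benjamini-Hochberg adjusted p of 0.05 in limma, where 0.0147% of all probe sets did. An unadjusted p under 0.05 was reached by 2 of the 38, and by 3.82% of all probe sets. Across the alternatives 0 list probe sets passed in each, and those with an unadjusted p under 0.05 numbered 0 without wildtype array 1, wildtype array 2 or knockout array 2, 1 without knockout array 1, and at most 4, without a filter, where 77 were tested.

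Among binding partners and receptors, 7 probe sets of 5 genes were tested, 2 with positive and 5 with negative values and a median log2 difference of -0.06. Robo2 and Nicol1 were not analysed here, and the probe sets of Robo3 and of Ros1, a receptor kinase on which NELL2 acts in the epididymis, lay below the filter. The scaled signal of Robo3, the receptor for NELL2 on commissural axons, was 27.7 ± 8.65 in wildtype and 34.0 ± 6.45 in knockout retinae (SD, n = 3). Robo1, a Slit receptor, had 78.3 ± 28.9 and 72.5 ± 11.2, a log2 difference of -0.06. Those signals overlapped between the groups.

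Itgb1, the integrin beta 1 subunit, had the largest values of this list. Its brightest probe set had 422.0, 428.2 and 432.7 on wildtype arrays 1 to 3 and 265.6, 297.1 and 376.2 on knockout arrays 1 to 3. All 3 knockout arrays lay below the wildtype arrays, as they did for 5.05% of all probe sets tested. The log2 difference was -0.44 ± 0.17 (SE; limma adjusted p = 0.999), and a second tested probe set had -0.39 ± 0.27 with overlapping groups. Without knockout array 1 the values were -0.34 and -0.10, and 4 further Itgb1 probe sets lay below the filter.

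The other partners had log2 differences close to 0. Cntnap4, a neurexin-like membrane protein, had 0.06 ± 0.20 (SE). Atraid, a membrane protein named as a NELL1 receptor in bone, had -0.04 ± 0.14. Prkcb, a protein kinase C that binds NELL proteins inside the cell, had 0.08 ± 0.19 and -0.09 ± 0.16 in its 2 probe sets. For each of these probe sets the groups overlapped.

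**Figure D4:**
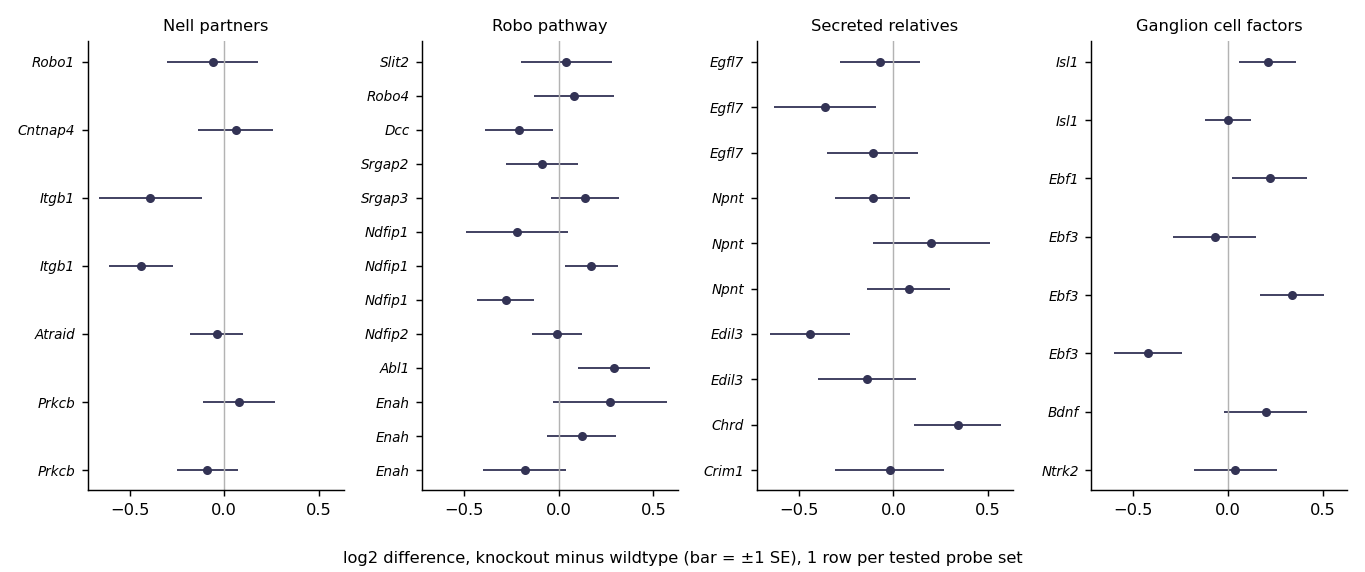
Log2 difference, knockout minus wildtype, of each tested probe set of 4 gene lists, with bars of 1 SE. The values lie between -0.44 and 0.34, and none passed the test.

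Of the Robo pathway beyond the receptors that bind NELL proteins, 13 probe sets of 9 genes were tested, 7 with positive and 6 with negative values and a median of 0.04. Slit2, a Robo ligand, had 0.04 ± 0.24 (SE). Abl1, a kinase that acts downstream of Robo receptors, had 0.29 ± 0.19, and 0.19 without knockout array 1. Dcc, the netrin receptor with which Robo3 interacts, had 105.5 ± 8.87 in wildtype and 88.8 ± 5.15 in knockout retinae (SD, n = 3), without overlap and with a log2 difference of -0.21 ± 0.18 (SE). Ndfip1, an adaptor for ubiquitin ligases, had -0.28, -0.22 and 0.17 in its 3 probe sets, and Enah, an actin regulator, had 0.27, 0.12 and -0.18, so their probe sets differed in sign. The Ndfip1 value of -0.28 was -0.14 without knockout array 1.

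Secreted relatives with similar modules had positive values in 3 and negative values in 7 of 10 tested probe sets, with a median of -0.09. Edil3, an integrin ligand with EGF-like repeats, had -0.44 ± 0.21 (SE) and -0.14 ± 0.26, the former without overlap and at -0.26 without knockout array 1. Chrd, the BMP antagonist chordin with von Willebrand factor C modules, had 0.34 ± 0.23, and the lowest of 3 tested Egfl7 values was -0.36 ± 0.27. Npnt, the integrin ligand nephronectin, had values of -0.11, 0.20 and 0.08. The thrombospondin genes Thbs1 to Thbs4 all lay below the filter.

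Of the transcription factors and neurotrophin genes linked to ganglion cells, 8 probe sets were tested, 5 with positive and 3 with negative values and a median of 0.12. Ebf3, an early B cell factor family member, had 0.34 ± 0.17, -0.42 ± 0.18 and -0.07 ± 0.22 (SE) in its 3 probe sets, and the first 2 were without overlap in opposite directions. Isl1, a LIM homeobox factor of ganglion, amacrine and bipolar cells, had 0.21 ± 0.15 and 0.00 ± 0.12. Ebf1 had 0.22 ± 0.20, and Bdnf, a neurotrophin, had 0.20 ± 0.22.

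The genes with the pattern closest to Nell2 were found by the root mean square difference between log2 profiles over the 6 arrays, each centred on its own mean, with the brighter probe set as the reference. The other Nell2 probe set differed by 0.208 and took place 5 of all probe sets tested, where the median was 0.614. A flat profile would differ from the reference by 0.585. The profiles include the group difference by which Nell2 was picked, so this place is a description and no independent sign of agreement. The 6 closest named genes were Cacna2d2 at 0.183, Flot2 at 0.20, Mark2 at 0.21, Safb2 at 0.211, Jund at 0.213 and Vat1 at 0.232. A single probe set stands for each gene, and those of Flot2, Safb2 and Vat1 can hybridise with related transcripts.

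Cacna2d2, an auxiliary subunit of voltage-gated calcium channels, had scaled signals of 304.1, 188.2 and 238.0 on wildtype arrays 1 to 3 and 617.1, 336.7 and 407.6 on knockout arrays 1 to 3. Its knockout arrays all lay above its wildtype arrays, with array 1 highest. Jund, a transcription factor of the AP-1 family, had 1386, 1251 and 865.5 on the wildtype arrays and 2649, 1282 and 1608 on the knockout arrays. There knockout array 2 lay below wildtype array 1, as for the dimmer probe set.

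All 6 genes had their highest value on knockout array 1, as did 25.3% of all probe sets tested. The genes were chosen for closeness to a profile that peaks on that array and is higher in the knockout. A shared peak and a positive difference were thus built into the choice, and nothing is read from them. The log2 differences of the 6 lay between 0.58 and 0.83 (limma adjusted p = 0.999 for each). No other probe set of Cacna2d2, Jund or Vat1 was tested. Other tested probe sets of the remaining genes did not share the pattern's size. They had 0.10 for Flot2, 0.10 and -0.32 for Mark2 (a microtubule affinity kinase), and -0.08 and -0.26 for Safb2 (a nuclear scaffold attachment factor).

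**Figure D5:**
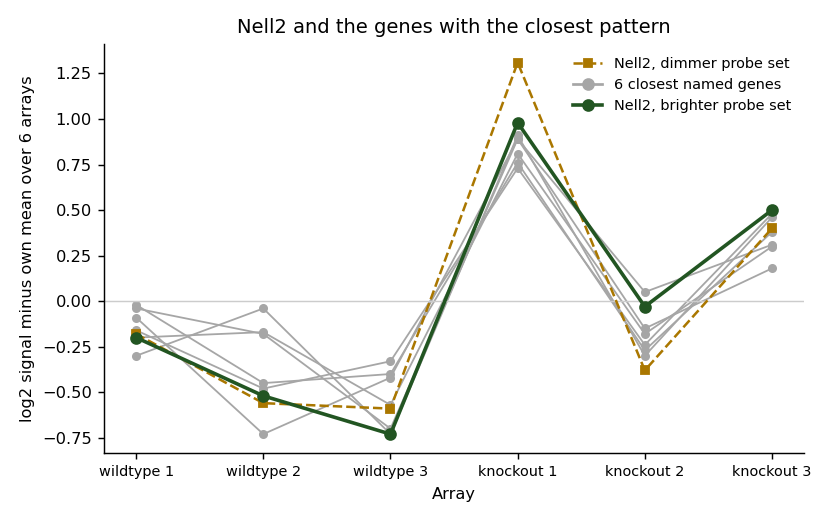
Log2 signal minus each probe set's own mean over the 6 arrays, for both Nell2 probe sets and the 6 closest named genes. Every line peaks on knockout array 1, where the brighter probe set reached 0.98 and the dimmer probe set 1.31 above its mean. The 6 genes were chosen for closeness to the brighter probe set, so their shared peak was built into the choice.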

How the data were processed

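Groups and replicate numbers came from the labels. Each deposited value is the intensity of a probe set on a linear scale. MAS5 produced it, per the submitters' processing notes. Its version, scaling target and detection calls are not given in the sources used here. Per array, the trimmed mean ranged from 171 to 312, so the arrays differed in overall level. The 64 control probe sets were left out, arrays were scaled to 1 trimmed mean, and log2 was taken after adding 19.1 (the 20th percentile of all signals), which understates changes of dim probe sets. Probe sets with a mean above the 40th percentile (62.4) were tested with limma 3.58.1 in R 4.3.3 (lmFit, eBayes with an intensity trend) and Benjamini-Hochberg adjustment. The fit was tested on simulated data. A single gene symbol was found for 20380 probe sets, of which 20351 were matched to the gene table through Entrez identifiers. Identifiers ending in _x_at, _s_at or _a_at mark probe sets that may also bind related transcripts.

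The members and lists were chosen with earlier results of these data known. The genes named are all partners tested, up to 4 genes of each other list with the smallest unadjusted p, and the 6 closest in pattern. Of the nearest 3 genes with a probe set on each side of Nell2 and Nell1, those with a tested probe set are named. Slit2, Npnt's further probe sets, Malat1 and the markers named were added after their values were seen. Alternatives covered the scaling, the pseudocount and filter, the variance model, weighted arrays, the replicate block and arrays left out. The targeted gene is not reported here.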

Additional observations from a re-analysis of the deposited data

How the results depend on the processing

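The log2 difference of the brighter Nell2 probe set was positive in all 18 alternatives, from 0.70 to 1.25, with 0.72 to 1.22 when single arrays were left out. That of the dimmer one was positive in the 17 that gave a value, from 0.39 to 1.29, with 0.45 to 1.29 when single arrays were left out. It lay below the filter at the 60th percentile. Without rescaling the values were 1.25 and 1.12, where all probe sets had a median of 0.29. Array weights gave 0.77 and 0.60. With the replicate block the values were 0.97 and 0.89. That fit called 2 of all probe sets tested, as without the block. Same-numbered arrays deviated together at correlations of 0.177, -0.029 and 0.084, so the numbers were not taken to pair them. Leaving out the pseudocount, and leaving out wildtype 2 and knockout 1 together, were chosen after seeing the data, the latter because both arrays had a high 18S control signal.

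The count past the threshold, 2 as reported, came to 10 without rescaling and to 1 without a filter. It came to 4 without wildtype 2 and knockout 1, and to 0 to 4 with 1 array left out (0 without wildtype array 3). No list probe set passed in any alternative. Probe sets 1.5-fold apart without overlap numbered 34 higher and 185 lower. They were 73 and 106 with median scaling, 350 and 14 without rescaling, 77 higher without a filter, 97 lower with the stricter filter, 99 lower with array weights, and 65 and 76 without wildtype 2 and knockout 1. They ranged from 59 to 169 higher and from 93 to 598 lower with 1 array left out. The cause was not tested.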

Other observations

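The genes beside Nell2 and Nell1 on their chromosomes were read for comparison, using the gene order of the GRCm38.p6 assembly. Of the 3 nearest genes on each side of Nell2 that had a probe set, 4 probe sets were tested. Their log2 differences, knockout minus wildtype, were 0.10 ± 0.17 (SE) for Prickle1, a planar cell polarity gene, 0.04 ± 0.14 and 0.27 ± 0.15 for Yaf2, a Polycomb-associated factor, and 0.00 ± 0.26 for Arid2, a chromatin remodelling subunit. The groups overlapped for all 4, and limma's adjusted p was 0.999 for each.

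Around Nell1, 5 probe sets were tested. Prmt3, a protein arginine methyltransferase, had 0.16 ± 0.16 (SE), with all 3 knockout arrays above the wildtype arrays. Nav2 had 0.11 ± 0.23 and Fancf, a Fanconi anaemia gene, had 0.04 ± 0.19. Slc17a6, the vesicular glutamate transporter of ganglion cells, had -0.56 ± 0.28 and 0.16 ± 0.19 in its 2 probe sets, which differed in sign. None of the 5 passed the test (limma adjusted p = 0.999).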
